A study of Ictidomys tridecemlineatus with 5 samples.

Results

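The metalloproteinases of the extracellular matrix and cell surface, with their tissue inhibitors, were read in whole eye and in retina of the ground squirrel Ictidomys tridecemlineatus. Members were the Swiss-Prot best hits of assembled transcripts whose entry name begins with MMP, or whose description names a matrix metalloproteinase, a metalloproteinase inhibitor or a disintegrin and metalloproteinase. The rule found 47 of the 15938 entry names in the tables: 13 matrix metalloproteinases (MMP), 3 tissue inhibitors (TIMP), 14 ADAM proteins and 17 ADAMTS proteins. Of these, 35 stood in both tissue tables, 7 in the eye table only and 5 in the retina table only. Of all 15938 names, 13949 stood in both tables, with 15287 in the eye table and 14600 in the retina table. The members had 42 names in the eye table and 40 in the retina table. The animals were wild type, with no treatment named in the labels. Messenger RNA was sequenced in 2 eye libraries and 3 retina libraries, and each library preparation pooled RNA of 4 animals. The deposited tables give each transcript 1 value per tissue. Hence no value per library was analysed here, no difference has a replicate check, and no test was run.

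MMPs are zinc-dependent endopeptidases that are made as inactive proenzymes and cut collagens, basement membrane and other matrix proteins. ADAM proteins are membrane-anchored relatives, several of which shed the outer parts of receptors, adhesion molecules and growth factors, and ADAMTS proteins are secreted relatives that bind matrix and cut proteoglycans or procollagens. TIMPs block the active site of MMPs and, in the case of TIMP3, also that of several ADAM and ADAMTS enzymes. In the eye these proteins are known for turnover of the sclera, cornea and aqueous outflow tissue and of Bruch's membrane under the pigment epithelium, where inherited changes in TIMP3 cause Sorsby fundus dystrophy.

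Levels are RPKM, read counts scaled to transcript length and sequencing depth, of the highest transcript of each entry name, so that genes can be set side by side within a tissue. The scaling behind the values corresponds to 264219334 reads in eye and 355988270 in retina, which puts 264 and 356 reads on a transcript of 1000 bases at 1 RPKM. A difference is log2(RPKM + 1) in eye less the same in retina, a scale that understates the difference of low genes, and was taken for names found in both tables that reached 1 RPKM in at least 1 of the tissues. Intervals are 95% counting intervals and cover counting error only. Photoreceptor markers summed to 3682 RPKM in eye against 7045 in retina, with 8 of the 9 compared lower in eye. Markers of the surrounding tissues were found in both tables: those of connective tissue summed to 757 RPKM in eye against 101 in retina, those of the pigment epithelium to 1369 and 313, and those of the lens to 9889 and 29.4. Sums for endothelium and blood were 8902 and 259 RPKM, for ciliary body, iris and outflow 4450 and 501, for skeletal muscle 1808 and 1187, and for macrophages 102 and 26.3. The retina sum for muscle came almost wholly from ACTA1 and CKM, at 601 and 584 RPKM on transcripts of 135 and 115 bases. In retina MYLPF and TNNI2 stood at 1.37 and 1.01 RPKM, against 366 and 220 in eye, and MYH2 was in the eye table only. Markers of retinal neurons summed to 1147 and 2053 RPKM and those of Mueller glia and astrocytes to 2520 and 1601. Among the glial markers GLUL and RLBP1 each differed by 0.10, and GFAP, APOE and AQP4 by 3.03, 1.35 and 0.84. Of 6 markers of the corneal surface 3 were in the eye table only, and the other 3 were higher in eye. Each difference below is between tissues of unlike cell makeup, and fewer cells of a type cannot be told apart from less RNA per cell.

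The 3 inhibitors were the most abundant members in eye and stood higher there than in retina, whereas most proteases lay within 2-fold between the tissues. Of the 47 members 31 could be compared, and 7 of them, 22.6%, were at least 2-fold higher in eye, against 11.8% of the 13383 proteins compared in all. These were TIMP1, TIMP2, TIMP3, MMP2, MMP14, ADAM15 and ADAMTS2. ADAMTS9 alone, 3.23% of the members compared, was at least 2-fold higher in retina, against 3.60% of all proteins. The median difference of the members was 0.03 and that of all proteins was -0.0035. By family the medians were 1.50 for 3 TIMPs, 0.29 for 9 MMPs, -0.14 for 9 ADAM proteins and -0.12 for 10 ADAMTS proteins. Beside 49.7% of all proteins compared that were higher in eye, 16 of the compared members were higher and 15 lower there. With both tissues scaled to an equal total over proteins, which moved the median of all proteins to -0.29, these numbers were 12 and 19, and MMP15, ADAMTS5, ADAMTS10 and ADAMTS18 took the sign of a lower level in eye. With transcripts summed and set to an equal total, which left 9 members to compare, the MMP median was -0.72 and the TIMP median 1.14. Of the 31 members compared, 5 passed the 1 RPKM filter through 1 tissue only (MMP11, MMP28, ADAMTS2, ADAMTS6 and ADAMTS9), and a further 4 stood in both tables under 1 RPKM.

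**Figure D1:**
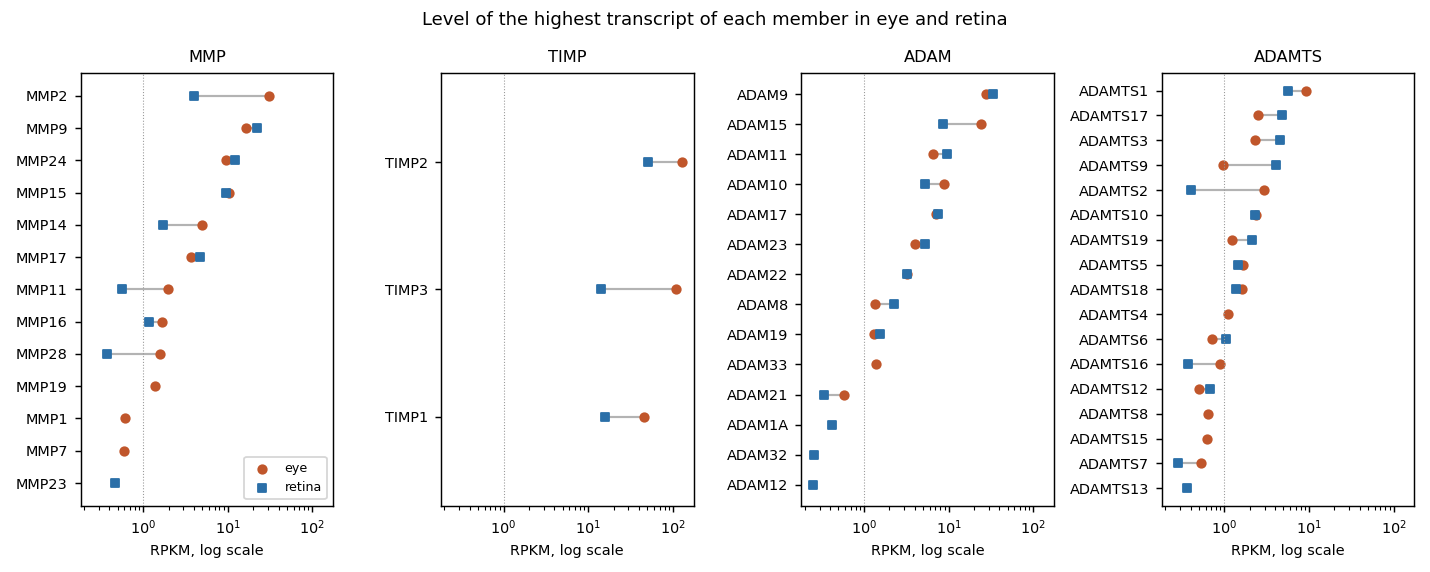
Level of the highest transcript of each of the 47 members, in RPKM on a log axis, in eye (circles) and retina (squares), by family; a single symbol marks a name found in 1 table, and the dotted line is 1 RPKM. The 3 TIMPs lie between 46.4 and 129 RPKM in eye and between 14.04 and 50.5 in retina, and the highest protease levels are 30.5 RPKM for MMP2 in eye and 33.5 for ADAM9 in retina.

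The inhibitors came first in eye, while in retina ADAM9 and MMP9 stood between TIMP2 and the other inhibitors. The place of MMP9 rests on a transcript aligned over 200 amino acids, and its retina transcript of longest alignment stood at 3.11 RPKM. TIMP2, which besides blocking MMPs takes part in the activation of pro-MMP2 at the cell surface, stood at 129 RPKM in eye against 50.5 in retina, a difference of 1.34 (1.32 to 1.35). It was the highest member in each tissue, above 96.3% and 90.6% of all proteins of the eye and retina tables. TIMP3, the inhibitor that stays bound to matrix, stood at 109.7 RPKM in eye against 14.04 in retina, which is 7.81-fold higher in eye. Its difference of 2.88 (2.86 to 2.90) was the largest of the members compared. In eye it lay close under TIMP2, and in retina close under TIMP1. TIMP1, a secreted inhibitor that is inducible in many tissues, stood at 46.4 RPKM in eye against 15.7 in retina, a difference of 1.50 (1.46 to 1.55). All 3 were higher in eye under each of 15 alternative settings, and TIMP2 and TIMP3 stayed at least 2-fold apart in all 15. TIMP1 differed by 0.57 with transcripts summed and set to an equal total.

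Values of the TIMPs rested on transcripts that aligned over 187 amino acids for TIMP1, 194 for TIMP2 and 211 for TIMP3 in both tissues. Of the 4 eye transcripts of TIMP3, the 3 of 1920 to 3027 bases aligned over 211 amino acids and stood at 102.7, 109.7 and 109.7 RPKM, and the 2 retina transcripts aligned over the same 211 and stood at 11.8 and 14.04. These are assembled transcripts of 1 entry name, each with 1 value for its tissue, and are not replicates. Markers of connective tissue were higher in eye in 7 of 7 cases and those of the pigment epithelium in 4 of 5, and the part of these tissues in the TIMP differences was not tested. TIMP1 and TIMP3 each overlap a synapsin gene in the RefSeq annotation, SYN1 and SYN3, and the strand of the reads is not given in the sources used here. SYN1 stood at 29.7 RPKM in eye against 50.4 in retina, and SYN3 stood at 1.02 and 0.999. The part of these 2 genes in the TIMP1 and TIMP3 transcripts was not tested.

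By their highest transcripts the gelatinases, the MMPs that cut denatured collagen and basement membrane collagen, were the 2 highest MMPs of eye. MMP2 stood at 30.5 RPKM in eye against 3.99 in retina, 7.64-fold higher in eye, with a difference of 2.66 (2.62 to 2.70). It was the highest MMP of eye and the fifth of retina, and both values came from transcripts aligned over 662 amino acids. With transcripts summed and set to an equal total its difference was 0.87. By its highest transcript MMP9 was the highest MMP of retina, at 22.2 RPKM against 16.3 in eye, a difference of -0.43 (-0.48 to -0.37). Its rank and direction depended on the transcript. The highest ones, of 918 bases in retina and 1039 in eye, aligned over 200 amino acids. Those aligned over 431 in retina and 445 in eye stood at 3.11 and at 4.99 and 5.77 RPKM. These values lie under those of MMP15 and MMP24 in both tissues. With the longest alignment, and with the best Swiss-Prot match, MMP9 differed by 0.54, higher in eye. The other 13 of 15 alternatives kept it lower in eye, and it was past 2-fold towards retina with transcripts summed (-1.20), with these set to an equal total (-1.07) and with the longest transcript (-1.03). Slc12a5, the neuronal potassium chloride cotransporter, is the coding gene next to Mmp9 in RefSeq, and it stood at 59.6 RPKM in eye against 109 in retina. Its part in the MMP9 transcripts was not tested.

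**Figure D2:**
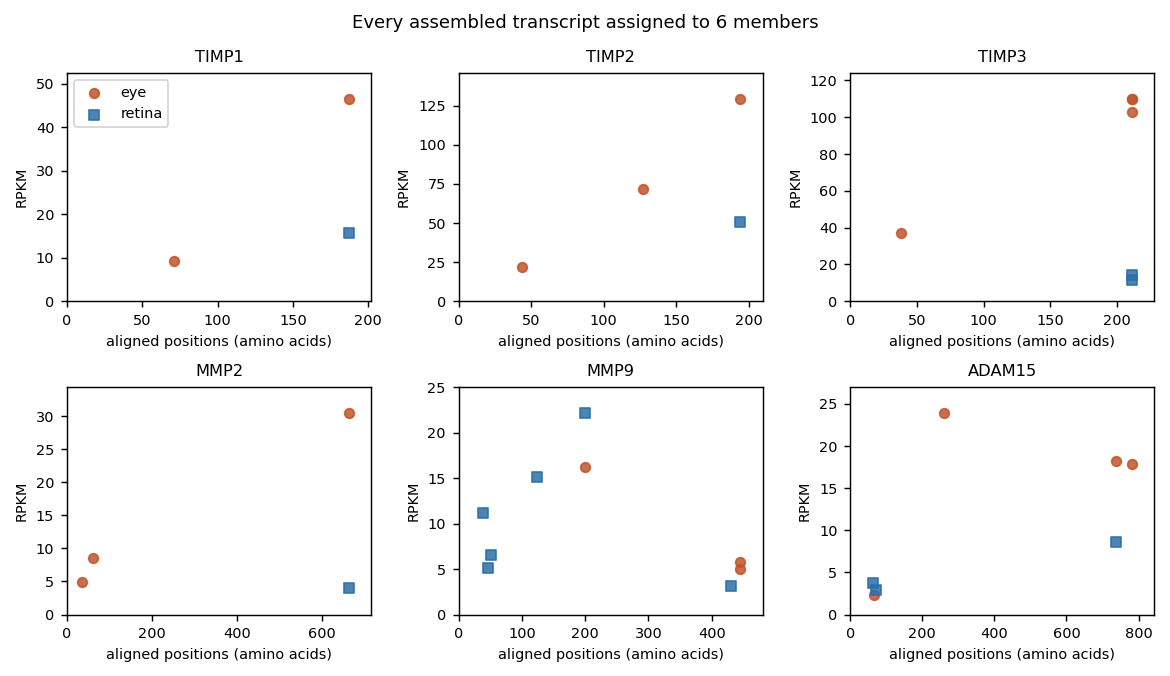
Every transcript assigned to 6 members, by its RPKM (y axis) and by the amino acids over which it aligned to its Swiss-Prot entry (x axis), in eye (circles) and retina (squares); each panel has its own axes. The transcripts of longest alignment of the 3 TIMPs and of MMP2 are higher in eye, whereas the MMP9 transcripts of highest RPKM aligned over 200 amino acids or fewer.

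Membrane-anchored MMPs differed less between the tissues than MMP2. MMP14, the membrane enzyme that activates pro-MMP2 together with TIMP2, stood at 4.95 RPKM in eye against 1.73 in retina, a difference of 1.12 (1.07 to 1.17), from transcripts aligned over 550 amino acids in both. It was the remaining MMP past 2-fold, and was under it with both tissues at an equal total (0.88) and with a pseudocount of 5 (0.56). MMP15, close in sequence to MMP14, stood at 10.2 and 9.58 RPKM. MMP16, another of this transmembrane group, stood at 1.67 and 1.18. Thus MMP15 stood above MMP14 and MMP16 in both tissues, with near-equal levels in eye and retina. MMP24, a membrane enzyme known from neurons, stood at 9.49 RPKM in eye against 12.05 in retina, a difference of -0.31. MMP17, which is held to the membrane by a lipid anchor, stood at 3.65 and 4.74 RPKM, a difference of -0.30. Both were lower in eye under all alternatives in which they could be compared, and with transcripts summed, 3 in retina and 1 in eye, MMP24 was past 2-fold towards retina at -1.36. The gene of MMP24 overlaps MMP24OS in RefSeq, and reads of the 2 genes cannot be told apart here.

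The remaining MMPs were rare. MMP11, a stromal enzyme also called stromelysin-3, stood at 1.957 RPKM in eye against 0.566 in retina, a difference of 0.92 (0.84 to 1.00). MMP28, known from epithelia, stood at 1.60 and 0.372 RPKM, a difference of 0.92 (0.82 to 1.03). As ratios of RPKM these are 3.45-fold and 4.31-fold, and with a pseudocount of 0.1 their differences were 1.63 and 1.85. The retina value of MMP28 came from a transcript of 559 bases with 74 reads. MMP19 was in the eye table only, at 1.39 RPKM, from a transcript aligned over 493 amino acids. The collagenase MMP1 and the matrilysin MMP7 were in the eye table only at 0.607 and 0.594 RPKM, and MMP23 in the retina table only at 0.467, each on transcripts of 521 bases or fewer.

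Among the ADAM proteins with protease activity, ADAM9 was highest in both tissues and ADAM15 was the one past 2-fold. ADAM9, whose loss in humans causes a cone-rod dystrophy, stood at 27.5 RPKM in eye against 33.5 in retina, a difference of -0.28 (-0.30 to -0.25). Both values came from single transcripts of nearly the same length, aligned over 819 amino acids, and ADAM9 was lower in eye under all 15 alternatives. ADAM15, known from endothelium and epithelium, stood at 23.9 RPKM in eye against 8.66 in retina, a difference of 1.37 (1.33 to 1.41). The eye value belongs to a transcript aligned over 260 amino acids. Those aligned over 736 and 781 stood at 18.3 and 17.9 RPKM, and with the longest alignment ADAM15 differed by 0.97, just under 2-fold. It was higher in eye in all 15 alternatives and past 2-fold in 11. PLVAP and PECAM1, markers of endothelium, stood at 50.9 and 0.336 RPKM and at 8.29 and 1.97, and the part of endothelium in the ADAM15 difference was not tested.

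The 2 main sheddases had middling levels. ADAM10, which cuts Notch receptors, the amyloid precursor protein and cadherins, stood at 8.73 RPKM in eye against 5.22 in retina, a difference of 0.64 (0.61 to 0.68). ADAM17, the converting enzyme of tumour necrosis factor, stood at 7.09 and 7.49 RPKM, a difference of -0.07 (-0.11 to -0.03). In eye ADAM10 was thus above ADAM17, and in retina below it. The sign for ADAM17 changed with length-weighted means (0.19) and summed transcripts, 3 in retina and 1 in eye, gave -1.22. ADAM19, which takes part in neuregulin processing, stood at 1.32 and 1.55 RPKM. ADAM8, a protein of leukocytes, stood at 1.34 and 2.30 RPKM, but the retina value came from a transcript aligned over 52 amino acids, and with the longest alignment ADAM8 differed by 0.47 instead of -0.49. ADAM33 was in the eye table only, at 1.40 RPKM, from a transcript aligned over 767 amino acids.

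ADAM11, ADAM22 and ADAM23 lack an active protease site and act as adhesion proteins and receptors of LGI proteins at synapses and axons. ADAM11 stood at 6.56 RPKM in eye against 9.67 in retina, a difference of -0.50 (-0.53 to -0.46). ADAM23 stood at 4.06 and 5.30 RPKM, a difference of -0.32 (-0.35 to -0.28). ADAM22 stood at 3.20 and 3.21 RPKM, and its interval of -0.05 to 0.05 holds 0. The order ADAM11, ADAM23, ADAM22 was the same in both tissues. ADAM11 and ADAM23 were lower in eye under every alternative that could be run for them, while ADAM22 was near 0 in most and differed by 1.25 with summed transcripts, having 4 transcripts in eye and 1 in retina. Levels of the synaptic markers SNAP25 and SLC17A7 were also lower in eye, with differences of -1.23 and -0.78. Their part in these differences was not tested.

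Apart from ADAM1A, ADAM names at the bottom of the range came from fragments. ADAM21 stood at 0.58 RPKM in eye against 0.34 in retina, on transcripts of 450 bases or fewer. ADAM12 and ADAM32 stood at 0.249 and 0.254 RPKM in retina, on 15 and 20 reads. ADAM1A stood at 0.421 RPKM in retina on a transcript of 1609 bases, aligned over 539 amino acids. These 3 were in the retina table only.

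Within the ADAMTS family the 2 procollagen N-proteinases went opposite ways. ADAMTS2, which trims fibrillar procollagens of skin and tendon, stood at 2.98 RPKM in eye against 0.400 in retina, a difference of 1.51 (1.37 to 1.64). Its eye transcript aligned over 1074 amino acids, while retina had 5 fragments of 288 to 369 bases and at most 0.400 RPKM. ADAMTS3, its close relative, stood at 2.29 RPKM in eye against 4.51 in retina, a difference of -0.74 (-0.78 to -0.70), from transcripts aligned over 1206 amino acids in both. ADAMTS3 was lower in eye in all 13 alternatives that could be run for it. ADAMTS2 was under 2-fold with transcripts summed (0.89) and with a pseudocount of 5 (0.56). COL1A1 and COL1A2, which encode a substrate of ADAMTS2, stood at 14.4 and 1.55 RPKM and at 32.2 and 1.71. They belong to the connective tissue markers, all 7 of which were higher in eye. The part of connective tissue in the ADAMTS2 difference was not tested.

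Proteoglycan-cutting ADAMTS proteins had their highest levels in ADAMTS1. ADAMTS1, an inducible enzyme that cuts versican and aggrecan, stood at 9.28 RPKM in eye against 5.68 in retina, a difference of 0.62 (0.59 to 0.66), and led the ADAMTS family in both tissues. With transcripts summed, 3 in retina and 1 in eye, its direction turned, to -0.39. ADAMTS5, the aggrecanase beside it in the genome, stood at 1.66 and 1.47 RPKM. ADAMTS4, also an aggrecanase, was in the eye table only at 1.09 RPKM. ADAMTS9, at 0.968 RPKM in eye against 4.04 in retina, was the 1 member past 2-fold towards retina, with a difference of -1.36 (-1.56 to -1.15). This value has a narrow base: the retina transcript has 288 bases, 414 reads and an alignment of 45 amino acids, and no ADAMTS9 transcript remained in retina at an E-value of 1e-20 or lower. With length-weighted means ADAMTS9 differed by -0.57. ADAMTS8 and ADAMTS15, neighbours in the genome, were in the eye table only at 0.639 and 0.617 RPKM.

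Other ADAMTS proteins were low in both tissues. ADAMTS17, one of those tied to fibrillin microfibrils and to ectopic lens in inherited disease, stood at 2.48 RPKM in eye against 4.78 in retina, a difference of -0.73 (-0.79 to -0.68), from transcripts aligned over 102 and 107 amino acids. With the longest alignment, over 400 amino acids and at 0.737 RPKM in eye, it differed by -1.73. ADAMTS10, also of the fibrillin group, stood at 2.36 and 2.30 RPKM, with an interval of -0.04 to 0.09, and differed by 0.60 with best-matching and by -1.26 with summed transcripts. ADAMTS19 stood at 1.24 and 2.14 RPKM, a difference of -0.49. ADAMTS18, linked to inherited disease of retina and lens, stood at 1.63 and 1.38 RPKM. ADAMTS6 stood at 0.714 and 1.06 RPKM. ADAMTS7, ADAMTS12 and ADAMTS16 were under 1 RPKM in both tissues, between 0.285 and 0.891, and ADAMTS13 was in the retina table only at 0.358.

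**Figure D3:**
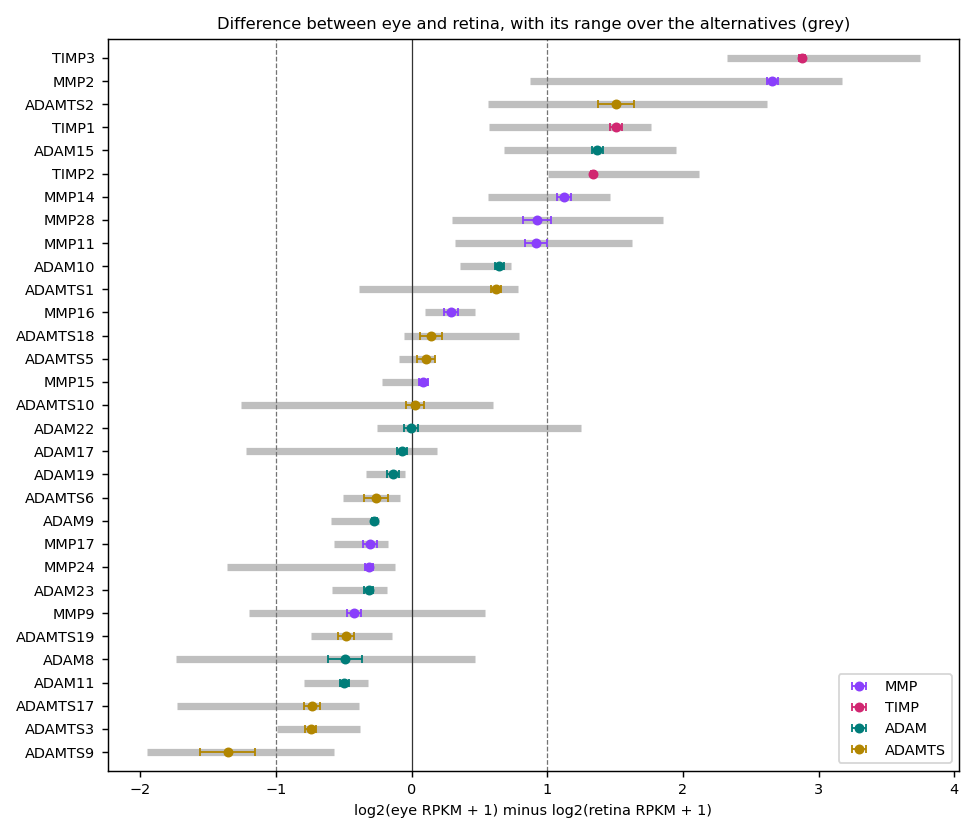
Difference of each of the 31 members compared (points, coloured by family, with 95% counting intervals) and its range over the alternative settings (grey bars), on a log2 scale where values above 0 are higher in eye; dashed lines mark 2-fold. TIMP2 and TIMP3 stay past 2-fold over the whole of their bars, and the bars of 9 members cross 0: MMP9, MMP15, ADAM8, ADAM17, ADAM22, ADAMTS1, ADAMTS5, ADAMTS10 and ADAMTS18.

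The balance of inhibitors and proteases can be read within each table, where the scaling of the tissues cancels. Summed over their highest transcripts, the 3 TIMPs reached 285 RPKM in eye against 80.2 in retina. The MMPs reached 82.9 RPKM over 12 names in eye and 56.9 over 10 in retina. TIMP transcripts were thus 3.44 times the MMP transcripts in eye and 1.41 times in retina, with counting half-widths of 0.04 and 0.02. Over the settings the ratio ran from 3.44 to 5.90 in eye and from 0.82 to 2.12 in retina. Pseudocount, filter and scaling do not enter the ratio, so only the choice of transcripts could move it. With summed transcripts MMPs outweighed TIMPs in retina. That MMP sum holds 6 MMP9 transcripts at 63.3 RPKM together, and reads counted on several of them would enter it repeatedly. Sums for ADAM proteins were 85.8 and 78.2 RPKM, and those for ADAMTS proteins were 29.9 and 29.4, nearly equal in the 2 tissues. Transcript levels do not measure active enzyme, since MMPs are made as proenzymes.

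**Figure D4:**
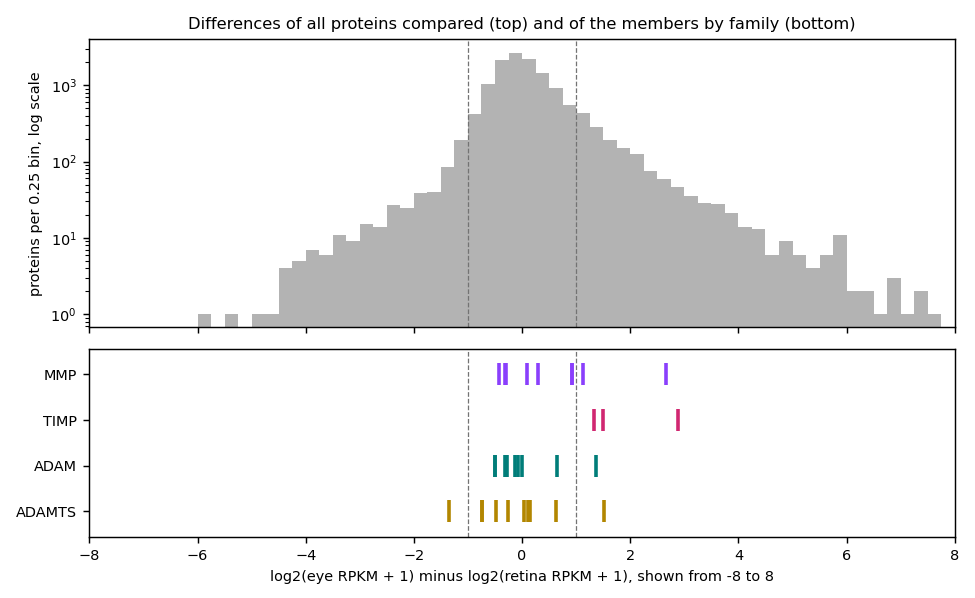
Top, the differences of the 13383 proteins compared, in bins of 0.25 with a log y axis; bottom, those of the 31 members by family, on the same x axis, with dashed lines at 2-fold (11 proteins beyond 8 are not shown). The TIMP marks lie in the right shoulder of the distribution, between 1.34 and 2.88, while most ADAM and ADAMTS marks lie near its middle.

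Genes that activate, bind or are cut by these enzymes were read from 7 lists. Of 16 compared genes for activators, the plasmin system, other inhibitors and clearance, 6 were past 2-fold towards eye, beside 11.8% of all proteins compared, with a median of 0.78. The convertase FURIN, which activates membrane MMPs and ADAM proteins, stood at 18.0 RPKM in eye against 11.8 in retina. PLAT, the tissue plasminogen activator, was past 2-fold at 11.8 and 4.26 RPKM, whereas PLAU, the urokinase, stood at 10.3 and 9.50. SERPINE2, an inhibitor of thrombin and urokinase, stood at 26.9 and 7.79 RPKM, a difference of 1.67. The membrane inhibitor of MMPs RECK was nearly level, at 5.88 and 5.56 RPKM. A2M, a broad proteinase trap, was past 2-fold at 4.97 and 1.34 RPKM. The other genes past 2-fold towards eye were LGALS3 (151 and 2.08 RPKM), THBS1 (17.0 and 0.398) and PCSK6 (10.3 and 4.21). BSG, the inducer of MMPs named EMMPRIN, was the most abundant of the list at 542 and 439 RPKM, its eye value on a transcript of 320 bases. CAV1, the caveolin that takes part in uptake of membrane enzymes, stood at 46.2 and 54.3.

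Astacin proteinases, a further branch of zinc enzymes that mature procollagens, were split between enzyme and enhancer. BMP1, the procollagen C-proteinase, stood at 6.38 RPKM in eye against 4.43 in retina, and TLL1 at 1.21 and 1.62. Both enhancers were past 2-fold, PCOLCE at 40.9 and 8.98 RPKM and PCOLCE2 at 15.6 and 3.89. The list had a median of 1.10 over 4 compared genes, 2 of them past 2-fold towards eye, beside 11.8% of all proteins compared.

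Partners and substrates of ADAM10 and ADAM17 mostly lay within 2-fold. Of 11 partners compared 2 were past it, both towards eye, with a median of 0.49. In lists of this size, that count and the one for substrates below lie near the 11.8% of all proteins. TSPAN10, a tetraspanin that escorts ADAM10 and is known from pigment cells, stood at 11.9 RPKM in eye against 2.41 in retina, and the iRhom RHBDF1, an escort of ADAM17, stood at 6.50 and 1.69. Of the other tetraspanin escorts, TSPAN14 was higher in eye with a difference of 0.93, just under the 2-fold mark. The rest were nearer to equal. TSPAN17 stood at 36.9 and 40.5 RPKM, TSPAN15 at 26.7 and 33.2, and TSPAN5 at 25.5 and 29.5. TSPAN33 stood at 7.71 and 8.18 RPKM. The gamma-secretase subunits, whose enzyme cuts what ADAM10 leaves in the membrane, were among the most abundant of the list, PSENEN at 49.3 and 34.5 RPKM and APH1A at 34.2 and 24.1. Pigment cell markers were higher in eye in 5 of 5 cases, with summed levels of 322 and 13.4 RPKM, and their part in TSPAN10 was not tested. Of 16 compared shedding substrates 3 were past 2-fold towards eye, with a median of 0.49: the amyloid precursor APP at 92.8 and 41.9 RPKM, the epithelial syndecan SDC1 at 85.1 and 0.526, and NOTCH3 at 2.35 and 0.253. The prion protein PRNP, the most abundant substrate, stood at 281 and 304 RPKM, the syndecan SDC4 at 63.8 and 39.8, and NOTCH1 stood at 4.30 and 4.24.

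Of 9 compared matrix proteins that these enzymes cut, 6 were past 2-fold towards eye and none towards retina, with a median of 1.18. With best-matching transcripts this median was 0.36. Of all proteins compared, 11.8% were past 2-fold towards eye and 3.60% towards retina. The 6 past 2-fold were NID2 (32.6 and 0.559 RPKM) and NID1 (7.89 and 0.638), which link basement membranes, SPP1 (75.4 and 7.55), FBLN1 (81.7 and 9.70), FBN1 (5.50 and 1.87) and FN1 (7.32 and 2.70). The neural lectican NCAN, a substrate of ADAMTS enzymes in nervous tissue, stood at 2.81 and 5.21 RPKM, and the link protein HAPLN4 at 7.26 and 9.29. ADAMTS-like proteins, which lack the protease domain, had 3 of 6 past 2-fold towards eye, PAPLN (8.01 and 1.70 RPKM), ADAMTSL4 (7.84 and 2.48) and ADAMTSL3 (1.76 and 0.354), and ADAMTSL5 past 2-fold towards retina at 14.4 and 41.0 RPKM. ADAMTSL2 stood at 1.80 and 1.34, and the median of that list was 0.64. Its counts stand beside the same 11.8% and 3.60% of all proteins. Partners of the ADAM proteins without protease activity had a median of -0.05 over 9 genes. Among them LGI1 was past 2-fold towards eye at 8.39 and 3.25 RPKM, while LGI4, at 21.4 and 25.2, and LGI3, at 10.8 and 11.2, were close to level. The scaffold DLG4 stood at 46.8 and 59.3 RPKM, the potassium channel KCNA2 at 12.6 and 20.5, and the axonal adhesion protein CNTNAP2 at 12.5 and 15.7. With transcripts summed and set to an equal total, where the median of all proteins was -0.72, 4 list medians took the opposite sign: -0.41 for activators and clearance, -0.34 for partners, -1.05 for substrates and -0.60 for ADAMTS-like proteins.

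**Figure D5:**
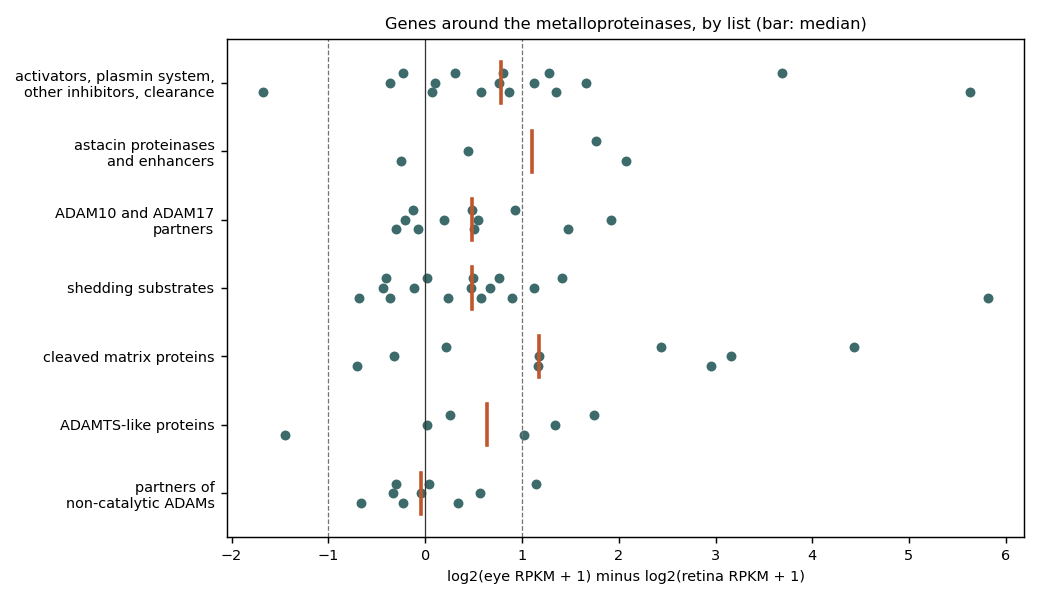
Differences between eye and retina of the compared genes of 7 lists around the metalloproteinases (points, shifted vertically for visibility), with each list's median as a bar, on a log2 scale where values above 0 are higher in eye; dashed lines mark 2-fold. With the highest transcript of each gene, the medians run from -0.05 for partners of the non-catalytic ADAM proteins to 1.18 for cleaved matrix proteins, an order that changed with best-matching transcripts, where cleaved matrix proteins stood at 0.36 and astacins at 1.10.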

How the data were processed

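The authors deposited, for each tissue, a table of 1 expression value and length per transcript and a table of Swiss-Prot best hits with E-value, bit score and percent similarity, per the file headers. The values were read as RPKM because the deposited value times length was a whole multiple of 1 constant within 0.01 reads for 100% of transcripts. Each deposited score (E-value, bit score) belongs to the best hit of a transcript. Bowtie is named, without a version, in the submitters' processing notes. The sources used here do not give the assembler or the counting mode. Transcripts were joined across tissues by entry name before the species code, in Python 3.11.15 with pandas 2.3.3. The level is the highest transcript, the pseudocount 1 and the filter 1 RPKM in either tissue. Counting intervals come from the Poisson variance of recovered reads, and the functions were tested on simulated data. Alternatives changed the transcript taken, the scaling, the pseudocount, the filter and the limits on length, E-value and source species. Members and lists were chosen with earlier results of these data known. Named were every MMP and TIMP, ADAM and ADAMTS proteins past 2-fold, in 1 table only at 1 RPKM or more, or among the 10 highest of their family, and of each list the genes past 2-fold and the 4 most abundant; further names are examples. A result of 1 list gene past 2-fold is not reported here. A planned grouping by protein motif was not made, since no protein sequences were used here. RefSeq symbols (mIctTri1.hap1) matched 44 of 47 members and were used for names and neighbours only. Genes of 12 marker lists were checked. The names GAD1 and PDE6H of those lists matched no entry name.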

Additional observations from a re-analysis of the deposited data

How the results depend on the processing

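No test was run, so stability here means direction and the 2-fold mark under 15 alternatives, 1 of them (the longest alignment) chosen after seeing the data. Of the 31 members compared, 22 kept their sign in every alternative that gave them a value, including all 7 at least 2-fold higher in eye and the 1 higher in retina. The count higher in eye, 7, was 2 with transcripts summed and set to an equal total, which kept 9 members. The count higher in retina, 1, was 5 with transcripts summed, 2 with best-matching transcripts and 2 with the longest alignment, and 0 with length-weighted means, a pseudocount of 5, a filter at 10 RPKM and E-values of 1e-20 or lower. The median difference, 0.03, was 0.087 with transcripts summed, 0.57 with these set to an equal total, 0.11 with best-matching transcripts, 0.090 with the longest transcript, 0.17 with length-weighted means, -0.22 with an equal total over proteins, 0.087 with no filter, 1.34 with a filter at 10 RPKM (9 members) and 0.20 with the longest alignment. Over all proteins, 11.8% and 3.60% past 2-fold became 16.8% and 19.3% with transcripts summed, and 6.18% and 32.2% with these set to an equal total. Reads counted on several transcripts would enter such sums repeatedly, so a sum can also rise with the number of transcripts assembled. Such reads were not separated here. No paired analysis was possible because the tables hold 1 value per tissue and none per library, and for the same reason no library could be left out.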

Other observations

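Places of the members in the RefSeq annotation were compared, without coordinates, because overlapping genes can share reads where the strand is not known. Of the 44 members with a place, 18 overlapped another annotated gene and 8 a protein-coding one: MMP24 with MMP24OS, TIMP1 with SYN1, TIMP2 with CEP295NL, TIMP3 with SYN3, ADAM17 with IAH1, ADAM33 with SIGLEC1, ADAMTS12 with TARS1, and ADAM8 with an unnamed gene. ADAMTS1 and ADAMTS5 lay side by side, at 9.28 and 1.66 RPKM in eye and 5.68 and 1.47 in retina. ADAMTS8 and ADAMTS15 also lay side by side, and both were found in the eye table only, at 0.639 and 0.617 RPKM.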
